A study of Mus musculus with 9 samples.

Results

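The genes of oxidative phosphorylation were followed in mouse embryonic fibroblasts (MEFs) by the RNA-Seq values of 88 genes of the 15184 in the deposited table. They were picked by symbol alone, taking names that begin with Nduf and a letter from a, b, c, s or v, the 4 genes Sdha to Sdhd, and names that begin with Uqcr, Cox4 to Cox8 or Atp5. Of these, 45 belong to complex I, 4 to complex II, 8 to complex III, 14 to complex IV and 17 to complex V. The symbols catch some genes that are not subunits of the complex they are named for. Ndufaf1 to Ndufaf8 encode 8 assembly factors of complex I, Ndufa4 is counted here with complex IV, and Cox7a2l is a factor that joins complexes III and IV. The files name complex V subunits by older symbols (Atp5g1 for Atp5mc1, Atp5a1 for Atp5f1a).

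Wild-type MEFs had been transduced with lentiviruses for CRISPR/SAM activation (an inactive Cas9 that brings transcriptional activators to a promoter) aimed at Hnrnpk, which encodes an RNA-binding protein. There were 3 libraries each labelled Empty vector, SAM1 and SAM2. The methods describe a non-targeting guide as the control, and they list the same sequence for it and for an Hnrnpk guide, so the guide in the cells labelled Empty vector is not settled here. The labels do not say which guide each SAM line received. The study's methods state the age in days of the embryos that its MEFs were taken from. No strain or number of clones is given for the cells, and nothing says that the replicates came from separate cultures. The p-values for single lines, and between the lines, therefore measure the spread between these libraries, which may be technical. Tests over both lines pool SAM1 and SAM2 libraries as replicates of a single group. The spread behind those p-values thus also holds the difference between the lines. PolyA+ RNA was read, and values are counts divided by a size factor for each library (normalized counts).

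Oxidative phosphorylation is carried out in the inner mitochondrial membrane. Complexes I and II take electrons from NADH and succinate, complex III passes them to cytochrome c, complex IV passes them to oxygen, and complex V (the ATP synthase) uses the resulting proton gradient to make ATP. All complexes but complex II combine subunits encoded in the nucleus, which are the members followed here, with subunits encoded in mitochondrial DNA.

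The targeted gene was checked first. Hnrnpk read 25058, 26098 and 26164 normalized counts with the empty vector, 24102, 24045 and 23619 in SAM1 and 26608, 26859 and 26221 in SAM2. The SAM2 libraries lay above every empty vector library and the SAM1 libraries below, and the log2 differences from empty vector were -0.11 ± 0.03 (SE, adjusted p = 0.00252) for SAM1 and 0.04 ± 0.03 (SE, adjusted p = 0.159) for SAM2. Hnrnpk RNA was thus not raised in SAM1 and differed by little in SAM2, and SAM1 and SAM2 are used below as the names on the libraries. The 9 libraries held 41759636 to 49026626 reads on the listed genes. All 10 fibroblast markers on the list were present, with summed levels of 1146317 to 1248264 normalized counts in empty vector, 892643 to 954087 in SAM1 and 1255966 to 1296876 in SAM2. The sum was carried by Fn1, Col1a1 and Col1a2, and single markers went both ways over both lines, with Dcn at -2.17, Pdgfra at -0.71 and Pdgfrb at 0.74 on the log2 scale. Of 5 muscle markers only Tnnt2 was in the table, at 115, 96.6 and 93.5 normalized counts with the empty vector, 437, 541 and 477 in SAM1 and 225, 242 and 246 in SAM2. Of the other lists, 2 of 4 epithelial markers (summed level 42.1 to 50.1, 110.1 to 113 and 42.7 to 52.4 in the 3 groups, in the same order), all 4 endothelial markers (301 to 357, 4613 to 4988 and 638 to 689, of which Kdr had means of 211, 4693 and 536) and Cd68 alone of 3 immune markers (315 to 416, 512 to 541 and 543 to 583) were present. Cdh5 of the endothelial list had lower means in both lines (77.6, 64.7 and 51.2). The part of any other cell type in the results was not tested, and in bulk RNA fewer cells of a type and less RNA per cell cannot be told apart.

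Changes of the 88 genes were small and went both ways, with more falls than rises on the deposited scale and fewer falls than rises when libraries were scaled to equal totals. In the 6 libraries labelled SAM against the 3 empty vector libraries, 12 members passed the test higher and 30 lower, and 46 did not pass (limma on log2(value + 1) across all genes, Benjamini-Hochberg adjusted p below 0.05). That was 47.7% of the members, beside 53.9% of all 15184 genes (26.8% higher and 27.0% lower). The members' median log2 difference was -0.07, beside 0.0087 for all genes. It depended on single libraries, at -0.02 without empty vector replicate 2 and -0.11 without empty vector replicate 1 or without SAM1 replicate 2. Under quantile normalization it lay 0.029 below that of all genes, and 0.083 below on the deposited scale. The spread of the members was narrow, with an SD over genes of 0.26 against 0.82 for all genes. In 11 members every SAM library lay above every empty vector library and in 24 below, beside 25.9% and 27.2% of all genes. No member changed by 1 or more on the log2 scale in this comparison, and 84 of 88 stayed within 0.5. Without empty vector replicate 1, 7 members were called higher and 33 lower, beside 23.0% and 23.0% of all genes. When the libraries were scaled to equal totals, the median of all genes moved to 0.13 and the calls became 23 higher and 15 lower, beside 35.2% and 18.7% of all genes. This scaling shifts all genes of a library alike and bears on the level of the calls, not on the members in particular.

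Each line was then compared with empty vector on its own, both against the same 3 control libraries. In SAM1, 25 members were higher and 32 lower (64.8% called, beside 74.3% of all genes, of which 37.3% higher and 36.9% lower), with a median of -0.03. That median was 0.0025 without SAM1 replicate 3, -0.0025 without empty vector replicate 2, -0.10 without SAM1 replicate 2 and -0.08 without empty vector replicate 1, and under quantile normalization it was 0.04 above that of all genes, so no direction is read from it. In SAM2, 15 were higher and 43 lower (65.9% called, beside 70.5% of all genes, of which 35.2% higher and 35.3% lower), with a median of -0.11. Under equal totals these counts were 37 higher and 20 lower in SAM1 (47.6% and 27.0% of all genes) and 27 higher and 26 lower in SAM2 (43.2% and 27.2% of all genes), with medians of all genes at 0.15 and 0.10. Set directly against SAM1, SAM2 was higher for 14 members and lower for 31 (51.1% called, beside 60.3% of all genes, of which 31.1% higher and 29.2% lower), and the median was -0.08. Without SAM1 replicate 2 it was -0.04, with 21 members higher and 26 lower (29.9% and 27.7% of all genes). Under quantile normalization the median was -0.14. The SAM2 libraries lay above every SAM1 library in 15 members and below in 41, beside 34.8% and 33.4% of all genes. Against empty vector, such members were 22 above and 28 below in SAM1 (37.3% and 37.1% of all genes) and 17 above and 41 below in SAM2 (36.7% and 36.8% of all genes). Under equal totals the calls between the lines became 9 higher and 40 lower (26.9% and 33.4% of all genes), and under quantile normalization 9 higher and 44 lower (30.4% and 28.8% of all genes). Leaving out either SAM1 replicate 3 or SAM2 replicate 2 also left 9 members higher, beside 29.3% and 28.3% of all genes.

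**Figure D1:**
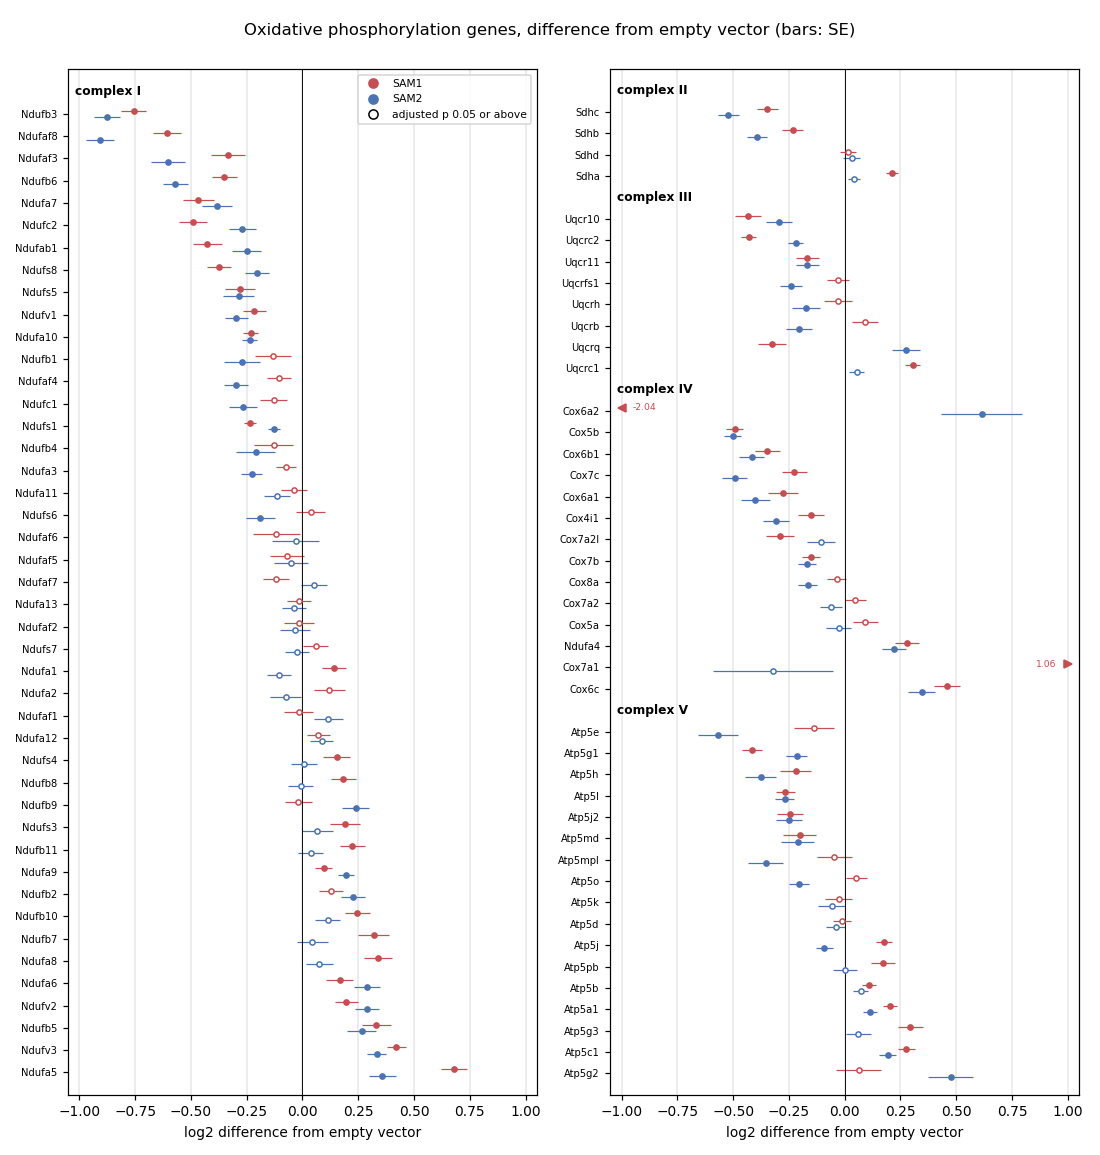
Log2 difference from empty vector (x axis) of 87 of the 88 genes (rows, by complex and sorted by the value over both lines) in the libraries labelled SAM1 (red) and SAM2 (blue), with SE bars and open points where the adjusted p was 0.05 or above. Most points lie within 0.5 of 0, the falls of Ndufb3 and Ndufaf8 are the largest shared by both lines, and the arrows mark Cox6a2 at -2.04 and Cox7a1 at 1.06 in SAM1.

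Binding motifs known from mitochondrial genes were counted in the members' promoters, as a description only. RefSeq windows (GRCm38.p6) from 250 bases before to 50 bases after the gene start were found for 74 of the 88 genes. They were searched on both strands for CCGGAAG, the core bound by ETS factors such as GABP, for the NRF1 site GCGCATGCG, for the YY1 site AAGATGGCG and for AAGGTCA, the site of estrogen-related receptors. The matches of different motifs were counted separately, whether or not they overlapped. The ETS core was in 19 member windows (25.7%) and in 9.93% of the windows of all 27025 genes. The core was in 10 of 25 members called lower over both lines, in 0 of 10 called higher and in 9 of 39 not called. The same split was not made over all called genes, so it is not read as particular to the members. The NRF1 site was in 10 members (13.5%, beside 1.95% of the 27025 genes), the YY1 site in 8 (10.8%, beside 1.64%) and the receptor site in 8 (10.8%, beside 5.38%). A match of letters is not a bound site, and whether any factor was bound there was not measured.

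The 10 members called lower whose window held the ETS core are shown, since they are the genes behind that count, and they were chosen after their values were seen. Each stretch is 30 bases read 5′ to 3′ along the gene, with the ETS core in capitals (CTTCCGG where it lies on the other strand), and the order runs from the largest fall to the smallest. Windows were placed in GRCm39 by exact match. Starts are those of the RefSeq table, and 8 of the 10 stretches lie within the longer gene spans of the GENCODE annotation (not those of Ndufb6 and Uqcr11), so that position relative to a start depends on the annotation.
Ndufaf8: cgcgttcgactCCGGAAGaggcagggccca
Ndufb6: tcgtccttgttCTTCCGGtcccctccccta
Cox6b1: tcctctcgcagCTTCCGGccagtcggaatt
Cox6a1: ccccatttccgCTTCCGGcgcgccggtgta
Sdhb: gctcggagaaaCCGGAAGcggccttccact
Atp5h: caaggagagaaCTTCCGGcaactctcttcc
Ndufs8: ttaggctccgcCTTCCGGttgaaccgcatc
Atp5l: tgccgcgggtcCTTCCGGgggtgacattca
Atp5md: ggagggggcgtCTTCCGGtcgggccgagct
Uqcr11: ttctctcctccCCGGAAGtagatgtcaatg

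The coordinates that follow are those of the 30 bases in GRCm39. The first base of the core lay 8 bases before the RefSeq start in Ndufaf8 (chr11:119989741-119989770, + strand), 28 before it in Cox6b1 (chr7:30325549-30325578, - strand), 16 before it in Cox6a1 (chr5:115487015-115487044, - strand), 38 before it in Atp5h (chr11:115310765-115310794, - strand) and 66 before it in Uqcr11 (chr10:80242703-80242732, - strand). In Ndufb6 it lay 232 bases before the start (chr4:40279635-40279664, - strand). In the other 4 it began after the start, at base 3 counted from it in Atp5md (chr19:47079066-47079095, - strand), 7 in Sdhb (chr4:140688577-140688606, + strand), 16 in Ndufs8 (chr19:3962741-3962770, - strand) and 25 in Atp5l (chr9:44831998-44832027, - strand).

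Complex I held both the largest falls and the largest rise that passed the test over both lines. Among its 45 genes 8 passed the test higher and 14 lower (48.9% called, beside 53.9% of all genes). The median log2 difference was -0.03, or 0.09 under equal totals, and ran from -0.08 without empty vector replicate 1 to -0.00113 without empty vector replicate 2. Ndufb3 (GRCm39 chr1:58625541-58636536), an accessory subunit of the membrane arm, read 1807, 2075 and 1903 normalized counts with the empty vector, 1097, 1230.4 and 1094 in SAM1 and 1027, 1047 and 1074 in SAM2. Every SAM library lay below every empty vector library, and the log2 difference was -0.82 ± 0.07 (SE, adjusted p = 7.5e-06). The assembly factor Ndufaf8 read 671, 768 and 750.0 normalized counts with the empty vector, 460.3, 495 and 479 in SAM1 and 410.4, 382 and 373 in SAM2. The groups again did not overlap, and the differences were -0.61 ± 0.06 (SE, adjusted p = 1.4e-06) in SAM1 and -0.91 ± 0.06 (SE, adjusted p = 3.1e-08) in SAM2. Ndufaf3, which acts with other factors early in assembly, fell by 0.47 on the log2 scale over both lines (adjusted p = 0.00476), from 410.5 ± 13.9 (SD, n = 3) to 327 ± 33.5 in SAM1 and 270.3 ± 13.1 in SAM2. The other 6 assembly factors of this name did not pass, so that 2 of 8 fell and none rose (25.0% called, beside 53.9% of all genes). Ndufa7, whose level per kilobase of transcript was the highest of complex I in empty vector (8328 ± 670.2 normalized counts per kilobase), changed by -0.42 ± 0.07 (SE, adjusted p = 9.0e-04).

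The largest rises of complex I were in 3 accessory subunits. Ndufa5 (chr6:24518659-24528012), in the matrix arm, read 979, 1119 and 1070.1 normalized counts with the empty vector, 1607, 1853 and 1620.1 in SAM1 and 1323, 1379.7 and 1354 in SAM2. The 3 groups did not overlap, with SAM1 highest, and the log2 differences from empty vector were 0.68 ± 0.06 (SE, adjusted p = 2.5e-07) in SAM1 and 0.36 ± 0.06 (SE, adjusted p = 1.3e-04) in SAM2. Ndufv3, beside the site that takes electrons from NADH, rose by 0.38 on the log2 scale (adjusted p = 1.6e-04) from 1595, 1727 and 1739 normalized counts in empty vector to 2221, 2368 and 2188 in SAM1 and 2144, 2122 and 2109 in SAM2. Ndufb5, in the membrane arm, changed by 0.30 ± 0.07 (SE, adjusted p = 0.00446), and its 6 SAM libraries lay above the empty vector libraries. By position in the complex, 1 of the 7 core subunits of the matrix arm, which carry the flavin and the iron-sulfur clusters, was higher and 4 lower (71.4% called, median -0.18). Among 9 accessory subunits of that arm, 4 were higher and 1 lower (55.6% called, median 0.08). Among 20 accessory subunits of the membrane arm, 3 were higher and 6 lower (45.0% called, median -0.05). These shares stand beside 53.9% of all genes, and differences between the subgroups were not tested.

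The 4 subunits of complex II, which is wholly nuclear and also serves the TCA cycle, did not move together, with 0 called higher and 2 lower over both lines (50% called, beside 53.9% of all genes, median -0.15, or -0.02 under equal totals). Sdhc, a membrane anchor, read 5733, 6592 and 6044 normalized counts with the empty vector, 4692, 5056 and 4677 in SAM1 and 4189, 4315 and 4268 in SAM2. No SAM library reached the empty vector range, and the log2 difference was -0.43 ± 0.07 (SE, adjusted p = 5.5e-04). The iron-sulfur subunit Sdhb, whose ETS core is printed above, read 4273, 4723 and 4589 normalized counts with the empty vector, 3746, 4119.8 and 3689 in SAM1 and 3452, 3482 and 3403 in SAM2. It was also lower without overlap, with a difference of -0.31 ± 0.06 (SE, adjusted p = 0.00267). Sdha, the catalytic subunit, read 10327, 10656 and 10218 normalized counts with the empty vector, 12179.6, 12054 and 11870.3 in SAM1 and 10794, 10602 and 10729.8 in SAM2. Its SAM1 libraries lay above empty vector, with a difference of 0.21 ± 0.03 (SE, adjusted p = 8.4e-06), and its SAM2 libraries overlapped empty vector at 0.04 ± 0.03 (SE, adjusted p = 0.171). The other anchor, Sdhd, had the highest level per kilobase of the complex and differed by 0.02 ± 0.04 (SE, adjusted p = 0.658) over both lines, with overlapping libraries.

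**Figure D2:**
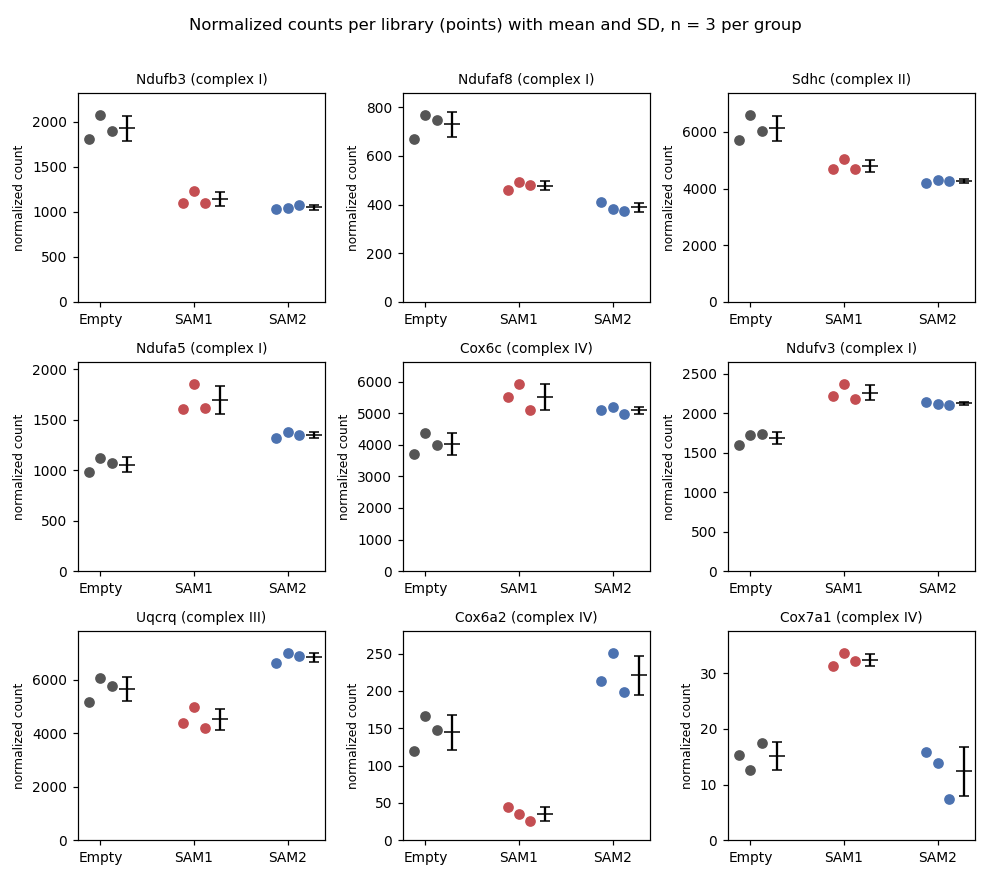
Normalized counts (y axes, starting at 0) of 9 members in each library, with the mean and SD (n = 3) beside each group. The top row shows members lower in both lines (Ndufb3, Ndufaf8, Sdhc), the middle row members higher in both (Ndufa5, Cox6c, Ndufv3) and the bottom row members that differ between SAM1 and SAM2 (Uqcrq, Cox6a2, Cox7a1).

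Complex III had no member called higher over both lines and 3 of 8 called lower (37.5% called, beside 53.9% of all genes, median -0.12, or 0.0042 under equal totals). Uqcr10, a small accessory subunit and the member of this complex with the highest level per kilobase, read 4153, 4586 and 4322 normalized counts with the empty vector, 3077, 3607 and 3006 in SAM1 and 3495, 3611 and 3541 in SAM2. Uqcrc2, core protein 2, read 5155, 5245 and 5245 normalized counts with the empty vector, 3970.3, 3812 and 3821 in SAM1 and 4676, 4396 and 4371 in SAM2. Both were below empty vector in every SAM library, with differences of -0.36 ± 0.07 (SE, adjusted p = 0.00202) for Uqcr10 and -0.33 ± 0.07 (SE, adjusted p = 0.00314) for Uqcrc2. In SAM2 alone, 6 of the 8 were lower than in empty vector and 1 was higher, Uqcrq (87.5% called, beside 70.5% of all genes). Of all genes, 35.2% were higher and 35.3% lower in SAM2. Uqcrq (chr11:53318749-53322047), a subunit near the cytochrome b core, read 5167, 6043 and 5739 normalized counts with the empty vector, 4380.4, 4965 and 4188 in SAM1 and 6615, 6974 and 6877 in SAM2. It was lower than empty vector in SAM1, -0.33 ± 0.06 (SE, adjusted p = 3.6e-04), and higher in SAM2, 0.27 ± 0.06 (SE, adjusted p = 0.00148), with no overlap in either case, and the lines differed by 0.60 ± 0.06 (SE, adjusted p = 2.9e-06). Its difference over both lines, -0.03, averages these opposite values.

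Complex IV included the members with the largest differences between the lines, which were isoforms known from heart and skeletal muscle. Cox6a2 (chr7:127804607-127805559), the muscle isoform of subunit 6a, read 119.7, 167 and 147 normalized counts with the empty vector, 44.6, 34.6 and 25.4 in SAM1 and 214, 250.4 and 199 in SAM2. The 3 groups did not overlap, and mean levels were 4.15 times lower in SAM1 and 1.53 times higher in SAM2 than in empty vector. The log2 differences from empty vector were -2.04 ± 0.18 (SE, adjusted p = 2.8e-07) in SAM1 and 0.61 ± 0.18 (SE, adjusted p = 0.00872) in SAM2, and SAM2 exceeded SAM1 by 2.66 ± 0.18 (SE, adjusted p = 5.1e-08). Cox7a1 (chr7:29883569-29885503), the muscle isoform of subunit 7a, was near the limit of the table at 15.3, 12.6 and 17.5 normalized counts with the empty vector, 31.3, 33.6 and 32.2 in SAM1 and 15.8, 13.9 and 7.42 in SAM2. Its pattern was the opposite, higher in SAM1 by 1.06 ± 0.27 (SE, adjusted p = 0.00299) and not past the test in SAM2, -0.32 ± 0.27 (SE, adjusted p = 0.301), and the lines differed by -1.38 ± 0.27 (SE, adjusted p = 6.4e-04). The widely expressed isoforms of the same subunits were far more abundant. Cox6a1 read 6670.0, 8048 and 7050.3 normalized counts with the empty vector, 5648, 6579 and 5729.6 in SAM1 and 5349.5, 5524 and 5568 in SAM2, and fell without overlap by 0.34 ± 0.08 on the log2 scale (SE, adjusted p = 0.00409). Cox7a2 stayed between 5257 and 6271 normalized counts in all 9 libraries, with a difference of -0.01 ± 0.06 (SE, adjusted p = 0.928). Tnnt2, the muscle marker given above, was higher than empty vector in both lines, and its part in these values was not tested.

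Over the whole of complex IV, 2 of the 14 genes were called higher over both lines and 6 lower (57.1% called, beside 53.9% of all genes, median -0.18, or -0.06 under equal totals). Cox6c read 3699, 4381 and 3984 normalized counts with the empty vector, 5519, 5925 and 5110.4 in SAM1 and 5116, 5191 and 4981 in SAM2, and every SAM library lay above empty vector, by 0.40 ± 0.07 (SE, adjusted p = 8.4e-04). Ndufa4, found with this complex, was also higher without overlap, by 0.25 ± 0.06 (SE, adjusted p = 0.00440). Cox5b read 2399, 2264 and 2408 normalized counts with the empty vector, 1706, 1698 and 1616 in SAM1 and 1680.3, 1681 and 1626 in SAM2. The lines differed by -0.01 ± 0.04 (SE, adjusted p = 0.845), and its difference from empty vector was -0.50 ± 0.04 (SE, adjusted p = 5.4e-06). Cox6b1, which lies between the monomers of the dimer, read 7175, 7938 and 7208 normalized counts with the empty vector, 5635, 6475 and 5474 in SAM1 and 5609, 5569.9 and 5528 in SAM2 and differed by -0.38 ± 0.06 (SE, adjusted p = 5.4e-04), without overlap. Cox7c was lower, again without overlap, with a difference of -0.36 ± 0.09 (SE, adjusted p = 0.00951). Cox4i1, a regulatory subunit with 29429 ± 2376 normalized counts per kilobase in empty vector, the highest of the complex, differed by -0.23 ± 0.07 (SE, adjusted p = 0.0256) over both lines, but its SAM1 libraries overlapped empty vector. Under quantile normalization its difference in SAM1, -0.15 on the deposited scale, was 0.051 and did not pass. Cox7a2l was lower in SAM1, -0.29 ± 0.06 (SE, adjusted p = 9.8e-04), and Cox8a in SAM2, -0.17 ± 0.04 (SE, adjusted p = 0.00423).

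The ATP synthase, complex V, showed 2 genes called higher and 5 lower of 17 (41.2% called, beside 53.9% of all genes, median -0.04, or 0.08 under equal totals). Both higher genes encode parts of the catalytic F1 head and its rotor. Atp5c1, the gamma subunit, read 6305, 6639.6 and 6916 normalized counts with the empty vector, 7832, 8391 and 7827 in SAM1 and 7634, 7632 and 7433 in SAM2. Atp5a1, the alpha subunit, read 23092, 24729 and 23354 normalized counts with the empty vector, 26949, 28069 and 26831 in SAM1 and 25724, 25796 and 25503 in SAM2. Neither overlapped empty vector, with differences of 0.24 ± 0.05 (SE, adjusted p = 0.00206) and 0.16 ± 0.04 (SE, adjusted p = 0.0128). Atp5b, the catalytic beta subunit and the member with the highest level per kilobase in empty vector (30333 ± 1255), differed by 0.11 ± 0.03 (SE, adjusted p = 0.00838) in SAM1 and 0.07 ± 0.03 (SE, adjusted p = 0.0655) in SAM2. Atp5e, the epsilon subunit of the rotor, read 3519, 4539 and 4042 normalized counts with the empty vector, 3519, 4201 and 3283 in SAM1 and 2653, 2746 and 2722 in SAM2, and was lower in SAM2 alone past the test, -0.57 ± 0.09 (SE, adjusted p = 7.2e-05).

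The 3 genes that encode the same protein of the rotor ring, subunit c, differed in direction. Atp5g1 read 2730.4, 3010.5 and 2916 normalized counts with the empty vector, 2143, 2304 and 2045 in SAM1 and 2436, 2516 and 2499 in SAM2 and was lower in both lines, with a difference of -0.32 ± 0.07 (SE, adjusted p = 0.00538) over both. Atp5g2 read 420.5, 362 and 407 normalized counts with the empty vector, 446, 348 and 455 in SAM1 and 562, 593 and 499 in SAM2, with SAM2 above every empty vector library by 0.47 ± 0.10 (SE, adjusted p = 9.3e-04) and SAM1 overlapping it at 0.06 ± 0.10 (SE, adjusted p = 0.590). Atp5g3, the most abundant of the 3, read 9174, 10878 and 9678 normalized counts with the empty vector, 12064, 12905 and 11432 in SAM1 and 10081, 10549 and 10306 in SAM2, with a difference of 0.29 ± 0.06 (SE, adjusted p = 3.5e-04) in SAM1 and 0.06 ± 0.06 (SE, adjusted p = 0.349) in SAM2. The mouse genome holds 4 other near-identical copies each of the Atp5g1 and Atp5g2 transcripts, so reads of these genes are less certain. Of the 5 small supernumerary subunits in the membrane, 3 were lower over both lines and none higher (60.0% called, median -0.21). Atp5l, subunit g, was lower without overlap, with a difference of -0.27 ± 0.04 (SE, adjusted p = 5.0e-04). Atp5mpl, a small proteolipid, read 2389.8, 2988 and 2702 normalized counts with the empty vector, 2621, 2885 and 2319 in SAM1 and 2055, 2121 and 2121 in SAM2 and was lower in SAM2, -0.35 ± 0.08 (SE, adjusted p = 0.00133). The peripheral stalk had 1 of 4 genes lower (25.0% called). Over both lines, 53.9% of all genes were called.

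Between the lines, SAM2 was lower than SAM1 in 31 members and higher in 14 (51.1% called, beside 60.3% of all genes). Beside Uqcrq, Cox6a2 and Atp5g2, the members higher in SAM2 included Ndufb9, an accessory subunit of complex I, at 0.26 ± 0.06 (SE, adjusted p = 0.00260). Ndufb9 read 4946, 5697 and 5092 normalized counts with the empty vector, 5024, 5723 and 4803 in SAM1 and 6190.2, 6275 and 6080.3 in SAM2, so that only its SAM2 libraries stood apart. Beyond Cox7a1, the largest values lower in SAM2 were those of Atp5e (-0.43, adjusted p = 1.0e-03), Ndufa5 (-0.32, adjusted p = 4.7e-04), Atp5mpl (-0.31, adjusted p = 0.00456) and Ndufaf8 (-0.30, adjusted p = 0.00120). The length of the transcripts and 2 libraries are described beside this comparison, as follows.

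The members are short, and short genes differed between the libraries. The median length of the canonical transcript was 1154 bases over 87 members and 3232 bases over all placed genes, and 46.0% of members against 8.0% of genes were under 1000 bases. Over all 527 genes under 700 bases, the median log2 difference of SAM2 from SAM1 was -0.24, and that of the 23 members in this class was -0.12. Against empty vector, the same classes had medians of 0.18 and -0.07 in SAM1 and -0.06 and -0.22 in SAM2. Longer classes were 700 to 1000, 1000 to 1500, 1500 to 2500 and 2500 to 5000 bases. Their medians of SAM2 from SAM1 over all genes were -0.21, -0.09, -0.04 and 0.0072. Those of the members were -0.11, -0.02, -0.04 and -0.15, so the members did not follow length in order. Within the groups, 76 of 88 members were highest in empty vector replicate 2 and 80 in SAM1 replicate 2, beside 38.9% and 37.2% of all genes, and 56 were highest in SAM2 replicate 2, beside 34.6%. The median deviations of these libraries were 0.08, 0.10 and 0.02 from the group mean. Without the first 2 of these libraries, an alternative added after the data were seen, 10 members were higher and 26 lower over both lines, 26 and 36 in SAM1, 23 and 43 in SAM2, and 21 higher and 30 lower in SAM2 against SAM1. The shares of all genes were 22.2% and 22.6%, 36.8% and 36.8%, 35.8% and 36.1%, and 32.6% and 29.9% in the same order. The part of transcript length in these values was not tested.

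**Figure D3:**
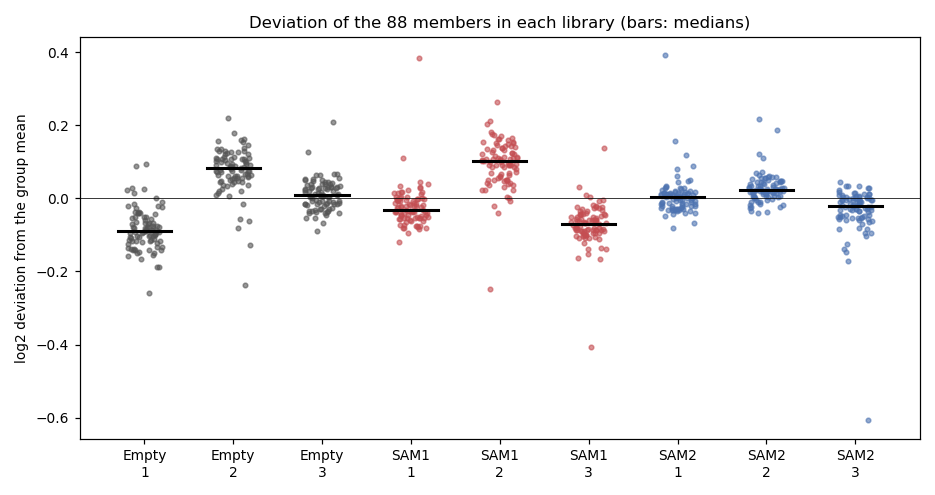
Log2 deviation of the 88 members from the mean of their group (y axis) in each of the 9 libraries, with medians as bars. Nearly all members lie above 0 in empty vector replicate 2 and SAM1 replicate 2 (medians 0.08 and 0.10), while the SAM2 libraries differ less.

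As a share of all normalized counts, the 88 genes made up 0.850% ± 0.0490 (SD, n = 3) in empty vector, 0.936% ± 0.0551 in SAM1 and 0.871% ± 0.0123 in SAM2. Complex V was the largest part, at 0.308% ± 0.0158, 0.362% ± 0.0171 and 0.331% ± 0.00296 in the same order. Complex I contributed 0.228% ± 0.0140, 0.242% ± 0.0182 and 0.233% ± 0.00376. The SAM2 share of all members lay within the range of the empty vector libraries, and the ranges of empty vector and SAM1 overlapped. For complex V the highest empty vector share was 0.324%, below the lowest in SAM1 (0.348%) and SAM2 (0.328%). The summed normalized counts were 48686625 to 49041969 in empty vector and 43909125 to 45489906 in the SAM libraries. A gene with equal normalized counts thus has a larger share in the SAM libraries.

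The subunits encoded in mitochondrial DNA were mostly higher than empty vector. Of 13 such genes, 8 were in the table, and all 8 were higher than empty vector in SAM1 (100% called, beside 74.3% of all genes), with a median log2 difference of 0.999. In SAM2, 6 were higher and mt-Nd6 was lower (87.5% called, beside 70.5% of all genes), with a median of 0.31. Set against SAM1, all 8 were lower in SAM2 (100% called, beside 60.3% of all genes, of which 29.2% lower). The largest difference in SAM1 was that of mt-Nd2, a complex I subunit, which read 42691, 30701 and 41779 normalized counts with the empty vector, 97626, 80380.2 and 96384 in SAM1 and 57497, 56271 and 49942 in SAM2. Its groups did not overlap, and the differences were 1.26 ± 0.11 (SE, adjusted p = 2.0e-07) in SAM1 and 0.52 ± 0.11 (SE, adjusted p = 8.1e-04) in SAM2. Also of complex I, mt-Nd5 was higher by 1.18 ± 0.12 (SE, adjusted p = 7.8e-07) in SAM1 and 0.71 ± 0.12 (SE, adjusted p = 1.1e-04) in SAM2, and mt-Nd1 by 1.06 ± 0.05 (SE, adjusted p = 2.7e-10) and 0.40 ± 0.05 (SE, adjusted p = 5.4e-06). mt-Nd6, from the other strand of the mitochondrial genome, read 2691, 3346 and 3136 normalized counts with the empty vector, 3774, 3264 and 3839 in SAM1 and 2094, 1891 and 2009 in SAM2, with a difference of -0.61 ± 0.08 (SE, adjusted p = 9.4e-06) in SAM2. Together the 8 genes made up 0.770% ± 0.0715 (SD, n = 3) of all normalized counts in empty vector, 1.66% ± 0.104 in SAM1 and 1.05% ± 0.0473 in SAM2. The libraries were made from polyA+ RNA, in which mitochondrial transcripts are caught unevenly.

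Cytochrome c1 (Cyc1), a complex III subunit whose symbol the rule does not catch, read 5966, 6481 and 6225 normalized counts with the empty vector, 6766, 6887 and 6483 in SAM1 and 8077, 8212 and 8055 in SAM2, and rose by 0.25 ± 0.09 (SE, adjusted p = 0.0350). Cytochrome c (Cycs), the carrier between complexes III and IV, differed by 0.08 ± 0.08 (SE, adjusted p = 0.440). Among 44 assembly factors outside the 88 genes, 7 were higher and 23 lower over both lines (68.2% called, beside 53.9% of all genes), with a median of -0.21. The smallest adjusted p were those of Tmem70, a complex V and complex I factor, at -0.75 ± 0.05 (SE, adjusted p = 1.2e-06), of Coa5, a complex IV factor, at -0.60 ± 0.04 (SE, adjusted p = 2.0e-06), and of Sdhaf4, a complex II factor, at -0.88 ± 0.08 (SE, adjusted p = 1.1e-05). Of 13 TCA cycle genes, 6 were higher and none lower (46.2% called, beside 53.9% of all genes, median 0.11), among them Sucla2 at 0.62 ± 0.03 (SE, adjusted p = 5.7e-07) and Cs (citrate synthase) at 0.29 ± 0.05 (SE, adjusted p = 4.4e-04).

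**Figure D4:**
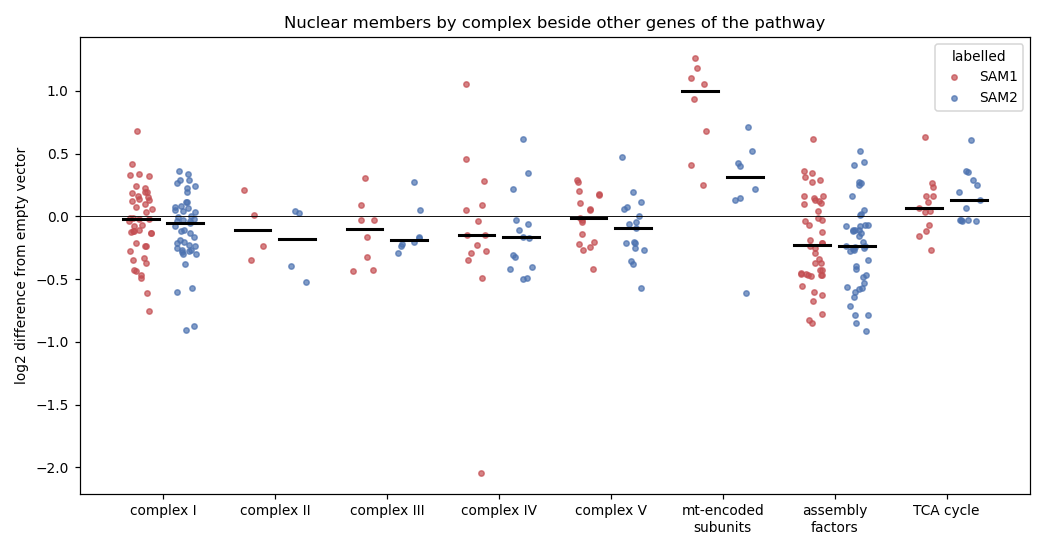
Log2 difference from empty vector (y axis) of the nuclear members by complex, the 8 mitochondrially encoded subunits, 44 other assembly factors and 13 TCA cycle genes in libraries labelled SAM1 (red) and SAM2 (blue), with medians as bars. The mitochondrially encoded subunits have medians of 0.999 in SAM1 and 0.31 in SAM2, while the medians of the 5 complexes lie between -0.19 and -0.01.

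Among 18 regulators of mitochondrial genes, 3 were higher and 6 lower (50% called, beside 53.9% of all genes). Yy1, Gabpa (the DNA-binding subunit of GABP) and Ppargc1b, a coactivator, had the smallest adjusted p. Yy1 changed by -0.27 ± 0.03 (SE, adjusted p = 8.9e-05) and Gabpa by -0.35 ± 0.04 (SE, adjusted p = 1.0e-04), both lower in every SAM library. Ppargc1b rose by 0.99 ± 0.13 (SE, adjusted p = 1.8e-04). Ppargc1a, the coactivator PGC-1α, which promotes the making of mitochondria, read 9.21, 6.30 and 4.67 normalized counts with the empty vector, 345, 329.8 and 343 in SAM1 and 70.2, 76.0 and 68.7 in SAM2. It, Nrf1 and Tfam are named after their values were seen. Its groups did not overlap, and the differences from empty vector were 5.50 ± 0.18 (SE, adjusted p = 1.2e-11) in SAM1 and 3.27 ± 0.18 (SE, adjusted p = 3.0e-09) in SAM2. Nrf1 differed by 0.09 ± 0.08 (SE, adjusted p = 0.353) over both lines, and Tfam, which packages and transcribes mitochondrial DNA, by -0.16 ± 0.09 (SE, adjusted p = 0.161), and neither passed over both lines. In single lines, Nrf1 was higher in SAM2, 0.22 ± 0.04 (SE, adjusted p = 1.3e-04), and Tfam lower in SAM1, -0.30 ± 0.03 (SE, adjusted p = 2.7e-06), both without overlap. Whether any of these regulators acted on the members was not tested.

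The direction of the called members was set beside where they lie in the genome. Over both lines, 21 of 30 members called lower lay on chromosomes whose other genes had a median below 0, as did 23 of the 45 placed members not called. All 12 called higher lay on chromosomes with a median above 0. The same counts were not made over all called genes, so these values are not read as particular to the members. Across the 87 placed members, the difference of a member and the median of other genes within 5 Mb had r = 0.555 as a description, since neighbouring members share neighbours and all values share the libraries. Cox5b, at -0.50, lay on chromosome 1 among genes with a median of -0.48, and Ndufb3, at -0.82, among genes at -0.42. Cox6c on chromosome 15 (0.40) and Ndufv3 on chromosome 17 (0.38) had neighbours at 0.27 and 0.22. Ndufa7 went against its neighbours, at -0.42 with a median of 0.22 around it, and Sdhc, at -0.43, had neighbours at 0.03. Relative to the median of its own chromosome, the median member lay at -0.05, compared with -0.07 before. The part of genome position in the calls was not tested.

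**Figure D5:**
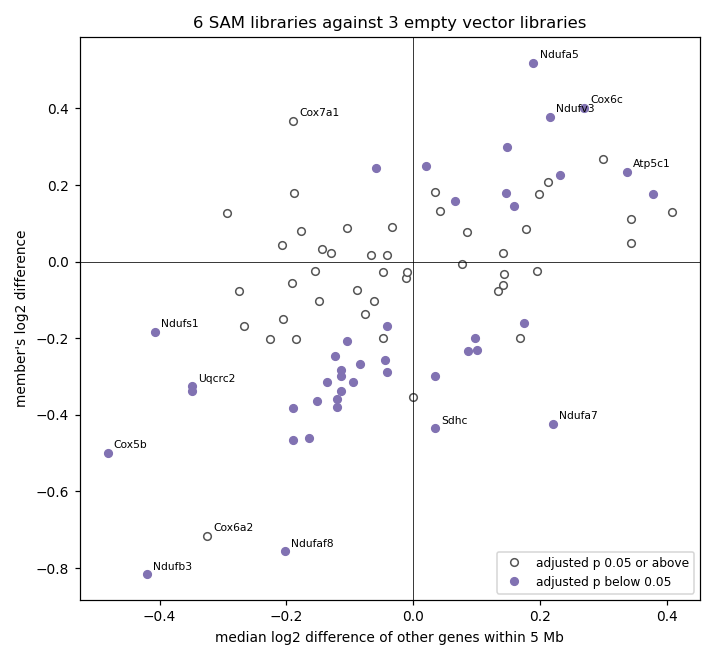
Log2 difference of each of the 87 placed members (y axis, 6 SAM libraries against 3 empty vector libraries) against the median log2 difference of the other listed genes within 5 Mb (x axis), with filled points for members past the test. Of the 12 members called higher, 11 lie right of 0, and of the 30 called lower, 23 lie left of it, and Ndufa7 and Sdhc are lower with neighbours above 0. No matching count was made over all called genes.

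Of the 87 members with a transcript to search, 16 had 1 to 6 near-identical copies elsewhere in the genome (at least 90% identity over at least 50% of the transcript), among them Cox7c with 6, Atp5g1 and Atp5g2 with 4 each, Atp5l with 3, Cox5b and Cox6c with 2 each, and Cox6a1, Cox6b1, Ndufa7 and Uqcr10 with 1 each. Values of these genes are uncertain where reads could be placed on a copy, since the alignment allowed reads with several placements. Ndufb3, Ndufaf8, Ndufa5, Ndufv3, Cox6a2, Cox7a1, Uqcrq and the 4 complex II genes had none.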

How the data were processed

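RNA was sequenced from 9 MEF libraries, 3 in each labelled group. Per the study's methods, reads were aligned to GRCm39 with TopHat2 and counted per gene with HTSeq. The authors deposited counts divided by DESeq2 size factors, a signal that keeps no raw counts, for genes above 10 in at least 30% of samples. No other sample columns were present (0). Whole reads could be recovered from the steps of the values (tolerance 0.1), and were used in count tests as an alternative.

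Values were tested as log2(value + 1) with limma 3.58.1 (R 4.3.3, trend) over all 15184 genes, calling adjusted p (Benjamini-Hochberg) below 0.05. Fold changes are on that scale and understate changes of low genes. The 6 SAM libraries were set against the 3 empty vector libraries in a fit with 2 groups. The lines were compared in a fit with 3 groups. In the fit with 2 groups, the spread within the SAM group includes the difference between the lines. The median SE of the members was 0.074 in that fit and 0.056 for either line against empty vector. The limma test was also run on simulated counts with few changed genes and no difference between the lines. Those settings are unlike the data here, so no support is drawn from that run. edgeR 4.0.16 and DESeq2 1.42.0 were run on the recovered reads of 8 libraries, leaving out SAM2 replicate 1. Other alternatives were other pseudocounts, a filter on low values, quantile normalization, equal totals, a replicate block, leaving out libraries and values relative to the chromosome.

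Named were all of complex II, up to 3 rises and 3 falls without overlap in each other complex, the 5 largest differences between the lines in each direction, isoform families, the highest level per kilobase in each complex, all mitochondrially encoded genes, both cytochromes and the 3 smallest adjusted p of each other list. Some genes that this rule takes are counted but not reported here by name. The members and lists were chosen with earlier results of these data known. Copies in the genome were searched with minimap2 2.31-r1302.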

Additional observations from a re-analysis of the deposited data

Results flagged for a closer look

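In 5 of the 37 named members, the highest of the 6 SAM libraries stood apart from the others by Dixon's test. Chance gives this in about 1 of 20 groups drawn from a single population. The 6 libraries came from both lines and all members share them, so the count is not set against that rate. The gap to the nearest library as a share of the range was 0.651 for Ndufb5, 0.653 for Ndufb3, 0.729 for Ndufa4, 0.839 for Cox6b1 and 0.691 for Cox6a1. The library was SAM1 replicate 2 in all 5, which was also the library in which 80 of the 88 members were highest within SAM1.

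The lines differed past the test, by at least 0.3 on the log2 scale in 7 named members. The log2 difference of SAM2 from SAM1 was 2.66 for Cox6a2, 0.60 for Uqcrq, 0.41 for Atp5g2, -0.31 for Atp5mpl, -0.32 for Ndufa5, -0.43 for Atp5e and -1.38 for Cox7a1. Of these, Cox7a1 rests on 7 to 34 normalized counts a library.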

How the results depend on the processing

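Counts moved with the scaling and with single libraries. With equal totals, members called higher or lower were 23 and 15 over both lines, 37 and 20 in SAM1, 27 and 26 in SAM2, and 9 and 40 in SAM2 against SAM1, where quantile normalization gave 9 higher. The shares of all genes beside these counts are given in the Results. Taking the mean of the lines from the fit with 3 groups gave 20 higher and 39 lower over both lines, beside 37.5% and 37.0% of all genes. Without the libraries numbered 2 of empty vector and SAM1, chosen after seeing the data, 23 were higher and 43 lower in SAM2. The shares of all genes there were 35.8% and 36.1%. Leaving out 1 library at a time, the counts higher and lower ran over 7 to 12 and 24 to 35 over both lines, 20 to 28 and 28 to 37 in SAM1, 15 to 20 and 38 to 44 in SAM2, and 9 to 21 and 26 to 39 in SAM2 against SAM1. The difference in SAM1 turned to 0.051 for Cox4i1 under quantile normalization and to 0.11 for Cox8a under equal totals. With the replicate block the counts were 11 and 29, 28 and 35, 17 and 46, and 18 and 41. The shares of all genes were 24.1% and 24.3%, 38.5% and 38.1%, 36.6% and 36.5%, and 33.3% and 31.3%. The replicate numbers were not taken to pair the samples, since deviations of same-numbered libraries correlated at 0.00237 to 0.117. Yet 8 of 9 libraries correlated best with their own number. The members were also most often highest in the library numbered 2 of each group. Of 2845 alternative values of named members, 2717 kept the call, 50 lost it, 76 gained it and 2 turned. Direction was compared only for values called in the main fit or in the alternative. Changes of sign among values called in neither lie within the 2717. Of 385 complex medians, 25 moved beyond the spread between replicates. The cause of these shifts was not tested. Small differences are limited by 3 libraries a group.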
